A study of Sus scrofa with 6 samples.

Results

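Of the 4350 circRNAs in the table analysed here, 6 came from 3 host genes of the centriole and the sperm flagellum. The hosts were IQCG with 2 circRNAs, POC1A with 1 and CCDC57 with 3, chosen by the gene name that the table gives. These hosts were picked because circRNAs of theirs differed between the ages in these same libraries, so every difference between the ages given for them is a description and supports nothing by itself. Testis RNA came from 3 Young_D30 boars, the Piglet stage at postnatal day 30, and 3 Adult_D210 boars at postnatal day 210, all of the Landrace breed, with 1 library per boar. According to the study, the tubules of the young testes held spermatogonia as their germ cells, whereas the adult boars were producing sperm. Ribosomal RNA was removed and linear RNA was digested with RNase R, an exonuclease that spares closed circles. The measurement was the number of reads across a back-splice junction, where the end of a downstream exon is joined to the start of an upstream exon.

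A sperm flagellum is built around an axoneme, a ring of microtubule doublets that grows from a centriole at the base of the sperm head. IQCG is a subunit of the complex that links the doublets and regulates their dynein motors, and it is needed to form the sperm tail. POC1A is a protein of the centriole wall that keeps centrioles intact and lets cilia grow from them. CCDC57 is a coiled-coil protein of the centrosome that takes part in centriole duplication together with CEP63. The gene ontology terms that the table lists for IQCG include sperm flagellum, manchette and sperm axoneme assembly, and those for POC1A include centriole, ciliary basal body and spermatogenesis. None of the terms listed for CCDC57 named a centriole, centrosome, cilium, flagellum or sperm.

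The libraries held 12701 to 33091 back-splice reads and 37364412 to 49179118 mapped reads. The unit SRPBM is the back-splice count per 1000000000 mapped reads divided by the read length, and 1 read was worth 0.136 to 0.178 SRPBM. All 2552 exonic circRNAs of the table had at least 1 read in Young_D30 replicate 1, so circles of these hosts that lack a read there were not analysed here. The study describes circRNAs on all chromosomes, and far more of them than the table analysed here holds. The exonic rows of this table lie on 4 chromosomes only, 1693 of them on chromosome 13, 560 on 8, 257 on 7 and 42 on 12. Every percentile, place and count of hosts below, and the coverage of each gene list, refers to that part of the genome, except for intronic circles, which come from more chromosomes. Of 99 marker genes of testis cell types, 11 hosted a circRNA in the table, and those of meiotic and post-meiotic germ cells were 3 of 35 (ACRV1, PIWIL1 and TDRD9). Their summed reads were 1.15, 0.275 and 0.530 per 1000000 mapped reads in the Young_D30 libraries and 1.12, 1.41 and 0.533 in the Adult_D210 libraries, so the ranges overlapped. Sertoli cell markers hosted circRNAs in 3 of 18 cases, Leydig cell markers in 2 of 12, spermatogonial markers in 1 of 16 (KIT), and peritubular, vascular and blood cell markers in 2 of 18. No circRNA of SYCP3, PRM1, SOX9, AMH or INSL3 was in the table, so these markers check nothing here. In whole testis, fewer cells of a type and fewer circles per cell cannot be told apart.

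The circles differ in structure. Coordinates are those of the table, counted from 1 on the pig assembly Sscrofa10.2 that the submitters' processing notes name, and all 3 hosts lie on the minus strand. The IQCG circles share their downstream end. The shorter, circRNA11760, has 2 exons and spans 1657 nt at chr13:144152728-144154384. The longer, circRNA11759, has 4 exons and spans 15554 nt at chr13:144152728-144168281, so it holds the whole shorter circle. The splice donor at base 144152728 is therefore used by both, followed by the same downstream intron of 13496 nt. The acceptor of circRNA11760 lies behind an intron of 10986 nt that is internal to circRNA11759, whose own upstream intron is 2837 nt long.

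The POC1A circle, circRNA10979, has 3 exons and spans 12837 nt at chr13:37486493-37499329, between introns of 8799 nt upstream and 1074 nt downstream. The CCDC57 circles do not overlap as the IQCG circles do. Upstream lies circRNA12275 with 4 exons over 2454 nt at chr12:919711-922164. Downstream lies circRNA12274 with 2 exons over 601 nt at chr12:912684-913284. From the listed flanking introns, an exon of 159 nt at chr12:916225-916383 separates them and belongs to neither circle. Inside the span of circRNA12275 lies ciRNA1069, an intronic circRNA of 691 nt at chr12:919937-920627. It starts at the 5′ end of an intron of 716 nt and stops 25 nt before the end of that intron. Circular intronic RNAs of this kind are known to be left over from lariats, in which the tail behind the branch point is trimmed.

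**Figure D1:**
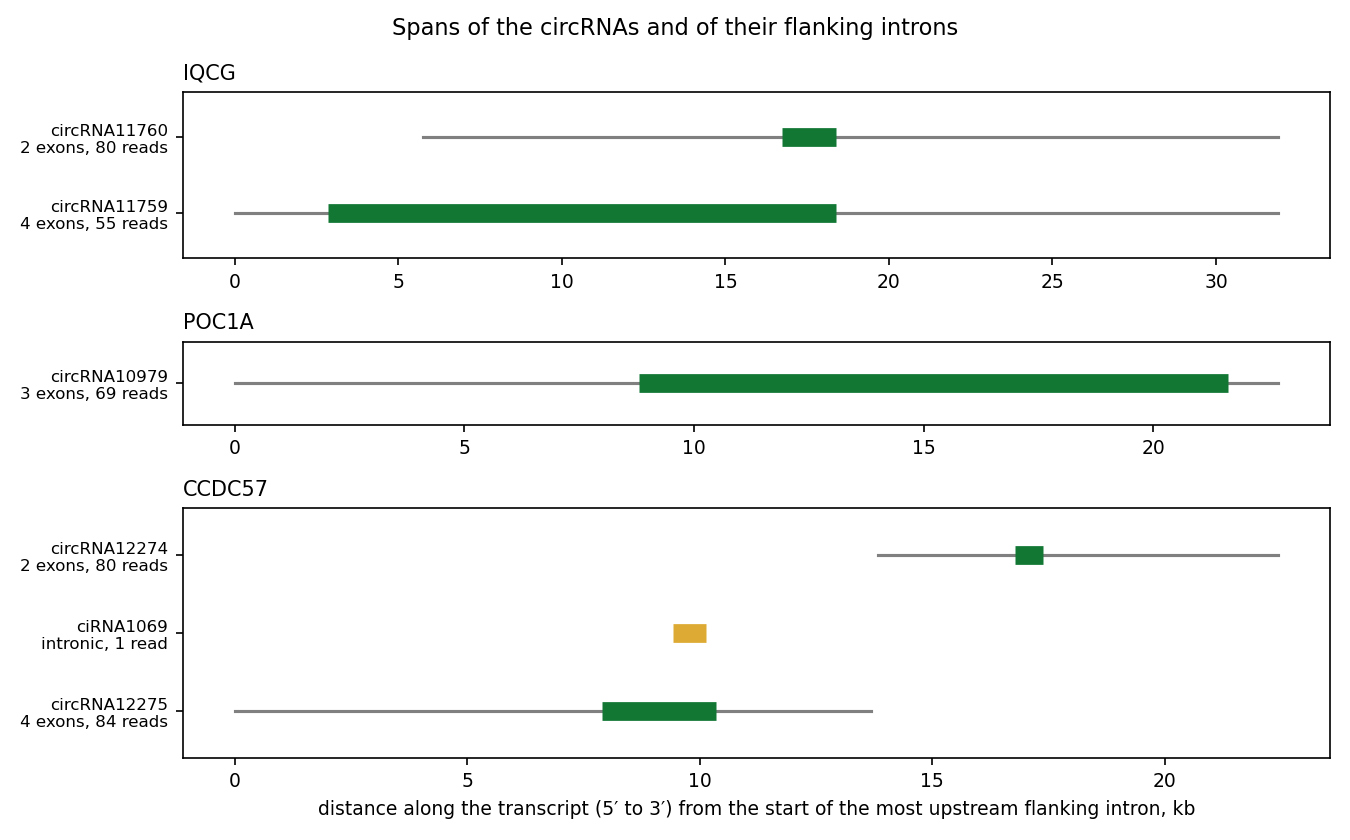
Spans of the 6 circRNAs (thick bars, green for exonic and yellow for intronic) and of their flanking introns (thin lines), drawn to scale within each host from 5′ to 3′ in kb. The IQCG circles end at the same place, whereas the exonic CCDC57 circles lie apart with the intronic one inside the upstream circle.

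Compared with the 2552 exonic circRNAs of the table, which span a median of 8725 nt and have a median of 4 exons, these circles were not of one kind. The spans of circRNA11759 and circRNA10979 stood at percentiles 69.2 and 63.2. Those of circRNA12275, circRNA11760 and circRNA12274 stood at 19.3, 13.8 and 5.43. The summed length of both flanking introns ran from 7991 nt for circRNA12274 to 24482 nt for circRNA11760, against a median of 12026 nt over the 2515 exonic circRNAs with both introns listed. Of 659 host genes of exonic circRNAs, 233 (35.4%) had a single exonic circRNA, as POC1A did in this table, and 118 (17.9%) had 2, as IQCG and CCDC57 did.

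All 5 exonic circles had more reads in the Adult_D210 group. Together the 6 circRNAs held 57 of 70154 reads in Young_D30 (0.0812%) and 312 of 50589 reads in Adult_D210 (0.617%). Their fold differences in mean SRPBM, Adult_D210 over Young_D30, ran from 2.86 for circRNA12275 to 14.9 for circRNA12274. Of the 6, 5 had at least 10 reads over all libraries and entered the fit over 1341 circRNAs. The intronic ciRNA1069 had a single read, in Young_D30 replicate 3, and did not enter.

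Of the 5, the longer IQCG circle, circRNA11759, had the widest gap between the groups. It had 1, 3 and 2 reads in the Young_D30 libraries and 21, 14 and 14 in the Adult_D210 libraries. Its level was 0.315 ± 0.140 SRPBM (SD, n = 3) in Young_D30 and 2.36 ± 0.469 SRPBM (SD, n = 3) in Adult_D210. The lowest adult library stood 4.17-fold above the highest young library, and the adult libraries differed from each other by no more than 1.49-fold. By mean SRPBM its place among the exonic circRNAs of the table was 1335 in Young_D30 and 218 in Adult_D210.

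The shorter IQCG circle, circRNA11760, had 6, 3 and 5 reads in Young_D30 and 46, 13 and 7 in Adult_D210. In SRPBM this was 1.07, 0.458 and 0.768 against 6.24, 2.14 and 0.956. Adult_D210 replicate 3 lay below Young_D30 replicate 1, so the groups overlapped, and the adult libraries ranged over 6.52-fold. The means were 0.766 ± 0.306 and 3.11 ± 2.77 SRPBM (SD, n = 3 each), with Adult_D210 replicate 1 far above the others.

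POC1A had a single circle in the table, also separated between the ages. This circRNA10979 had 3, 5 and 4 reads in Young_D30 and 27, 12 and 18 in Adult_D210. The levels were 0.638 ± 0.116 SRPBM (SD, n = 3) and 2.70 ± 0.867 SRPBM (SD, n = 3), a 4.23-fold difference. The groups did not overlap, and the lowest adult library was 2.59-fold above the highest young library.

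CCDC57 held both the circle with the largest and the circle with the smallest fold difference of the 5. Its downstream circle, circRNA12274, had 4, 0 and 0 reads in Young_D30 and 53, 11 and 12 in Adult_D210. All of its young reads were thus in replicate 1, the library in which a read was a condition for being in the table. A count of 0 allows up to 3 reads, or 0.458 and 0.461 SRPBM in Young_D30 replicates 2 and 3, counting error only. The means were 0.238 ± 0.412 SRPBM and 3.55 ± 3.15 SRPBM (SD, n = 3 each), with replicate 1 at 7.18 SRPBM against 1.81 and 1.64 in the other replicates. The groups still did not overlap.

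The upstream CCDC57 circle, circRNA12275, had 10, 8 and 2 reads in Young_D30 and 25, 27 and 12 in Adult_D210. Its mean was 1.10 ± 0.746 SRPBM in Young_D30 and 3.16 ± 1.42 SRPBM in Adult_D210 (SD, n = 3 each). Adult_D210 replicate 3 at 1.64 SRPBM lay below Young_D30 replicate 1 at 1.78 SRPBM, so the groups overlapped. In Young_D30 it was the most abundant of the 6, at place 578 among the exonic circRNAs, whereas in Adult_D210 circRNA12274 was the highest at place 141.

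**Figure D2:**
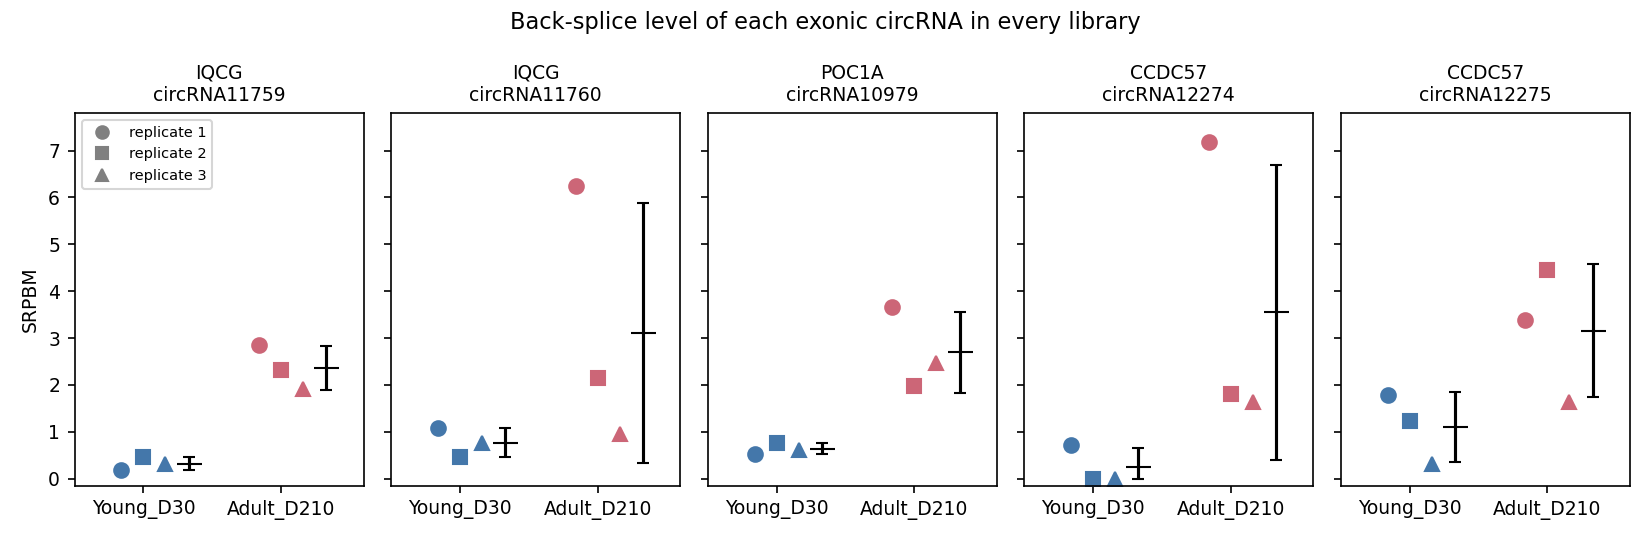
Level of each exonic circRNA in SRPBM in every library (symbols, replicates 1 to 3), with the group mean and SD (n = 3) beside them, the lower bar being cut at 0. Adult libraries lie above all young libraries for circRNA11759, circRNA10979 and circRNA12274, and Adult_D210 replicate 1 stands far above the other adult libraries for circRNA11760 and circRNA12274.

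A circRNA was called when edgeR's quasi-likelihood test gave a Benjamini-Hochberg adjusted p under 0.05 over all 1341 circRNAs tested and the log2 fold change was 1 or more in either direction. All 5 circles in the fit were called higher in Adult_D210. Among all 1341 tested, 8.28% were called in either direction, 3.43% higher and 4.85% lower. Since the hosts were chosen with this contrast known, nothing is read from the difference between these shares. The 1341 also include intronic circles, which can lack a read in Young_D30 replicate 1. Shares and medians over exonic circles alone were not analysed here. Every adult library lay above every young library for 3 of the 5, as it did for 3.73% of all tested. On the log2 scale the fold changes were 4.35 (standard error 0.92) for circRNA12274, 3.25 (0.71) for circRNA11759, 2.50 (0.61) for circRNA10979, 2.42 (0.65) for circRNA11760 and 2.01 (0.59) for circRNA12275. The median over all tested was −0.42, and the circles ranked from 7 to 98 of 1341 from the highest fold change down. Without Young_D30 replicate 1, in which every exonic circRNA of the table has a read, that median was −0.05 over 1046 tested.

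Scaling mattered for the calls but not for the direction. With mapped reads as library sizes the median over all tested was −0.90, and the fold changes of the 5 circles were 1.51 to 3.94. Only circRNA11759 and circRNA12274 were then called, 2 of 5, against 0.671% of all tested called higher. The call of circRNA11759 held with each library left out in turn, whereas that of circRNA12274 was lost without Adult_D210 replicate 1 (log2 fold change 3.65). That of circRNA12275 was lost with any 1 of the 6 libraries left out. For circRNA10979 it was lost without replicate 1 or 3 of either group, and for circRNA11760 without Adult_D210 replicate 1 or any Young_D30 library. Without Adult_D210 replicate 1 the log2 fold change of circRNA11760 was 1.71, against 2.42 with it.

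**Figure D3:**
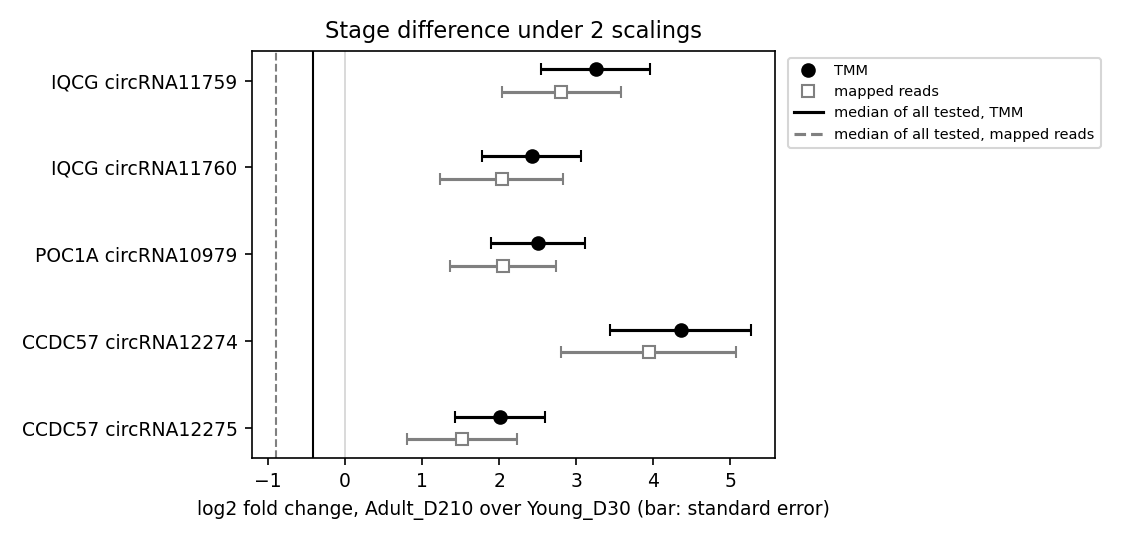
Log2 fold changes of the 5 circRNAs, Adult_D210 over Young_D30, with standard errors, under TMM scaling of the back-splice totals (filled circles) and with mapped reads as library sizes (open squares), beside the median of all 1341 circRNAs tested (vertical lines, −0.42 and −0.90). All values lie above 1.5 and above both medians, and the mapped scale is lower for each circle.

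Summed over its circles in the table, each host was at a higher mean level in Adult_D210. Exonic circles without a read in Young_D30 replicate 1 are not in these sums. IQCG stood at 1.08 ± 0.166 SRPBM in Young_D30 and 5.47 ± 3.23 SRPBM in Adult_D210, a 5.06-fold difference (SD, n = 3 each). CCDC57 stood at 1.39 ± 1.03 and 6.70 ± 3.67 SRPBM, a 4.81-fold difference (SD, n = 3 each). In order, CCDC57 was above IQCG and IQCG above POC1A in both groups, but CCDC57 and IQCG differed by less than the SD of CCDC57 in both groups. IQCG was above POC1A (0.638 and 2.70 SRPBM) by more than the SD in Young_D30 and by less than the SD of IQCG in Adult_D210. Adult_D210 replicate 1 had the highest summed level for all 3 hosts, at 9.08 SRPBM for IQCG, 3.66 for POC1A and 10.6 for CCDC57. That library also had the most back-splice reads of the adult libraries, 23583 against 14305 and 12701. The part of library size in these values was not tested.

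The circles of a host were compared by the share of its reads in the table that fell on the circle with the most reads in all. Exonic circles without a read in Young_D30 replicate 1 are outside these shares, in the adult libraries too. For IQCG this was circRNA11760, with 80 reads against 55 for circRNA11759. Its share was 85.7%, 50.0% and 71.4% in the Young_D30 libraries and 68.7%, 48.1% and 33.3% in the Adult_D210 libraries. The means, 69.0% ± 18.0 and 50.0% ± 17.7 (SD, n = 3 each), differed by about as much as libraries of a group did, and the groups overlapped. The young shares rested on 6 or 7 reads each, and their 95% Wilson intervals reached from 18.8% to 97.4% across the libraries. The adult libraries also differed among themselves, since the interval of replicate 1 (56.8 to 78.5%, 67 reads) lay above that of replicate 3 (17.2 to 54.6%, 21 reads). With few young reads and this spread between adult boars, no difference between the ages in the acceptor paired with the shared IQCG donor could be told from the spread within groups.

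For CCDC57 the circle with the most reads was circRNA12275, with 84 reads against 80 for circRNA12274. Its share was 71.4%, 100% and 66.7% in Young_D30 and 32.1%, 71.1% and 50.0% in Adult_D210. The means were 79.4% ± 18.0 and 51.0% ± 19.5 (SD, n = 3 each). Adult_D210 replicate 2 at 71.1% lay within the young range, but that overlap rests on the single read of ciRNA1069 in Young_D30 replicate 3. Between the exonic circles alone the young shares were 71.4%, 100% and 100% (10 of 14, 8 of 8 and 2 of 2 reads) and the adult shares were as before. The groups then did not overlap, by 0.376 percentage points between Young_D30 replicate 1 and Adult_D210 replicate 2, and the means differed by −39.4 percentage points, adult minus young, in place of −28.3. The Wilson intervals of those libraries, 45.4 to 88.3% and 55.2 to 83.0%, overlapped widely. With the reads of a group pooled, 20 of 25 young reads (80.0%, 95% Wilson interval 60.9 to 91.1) and 64 of 140 adult reads (45.7%, 37.7 to 54.0) were on circRNA12275. These intervals cover counting error only and leave out the spread between boars, which was large. In Adult_D210 replicate 1 the downstream circle had 53 reads and the upstream circle 25, whereas replicate 2 had 11 and 27. The order of the CCDC57 circles thus differed between boars of the same age.

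**Figure D4:**
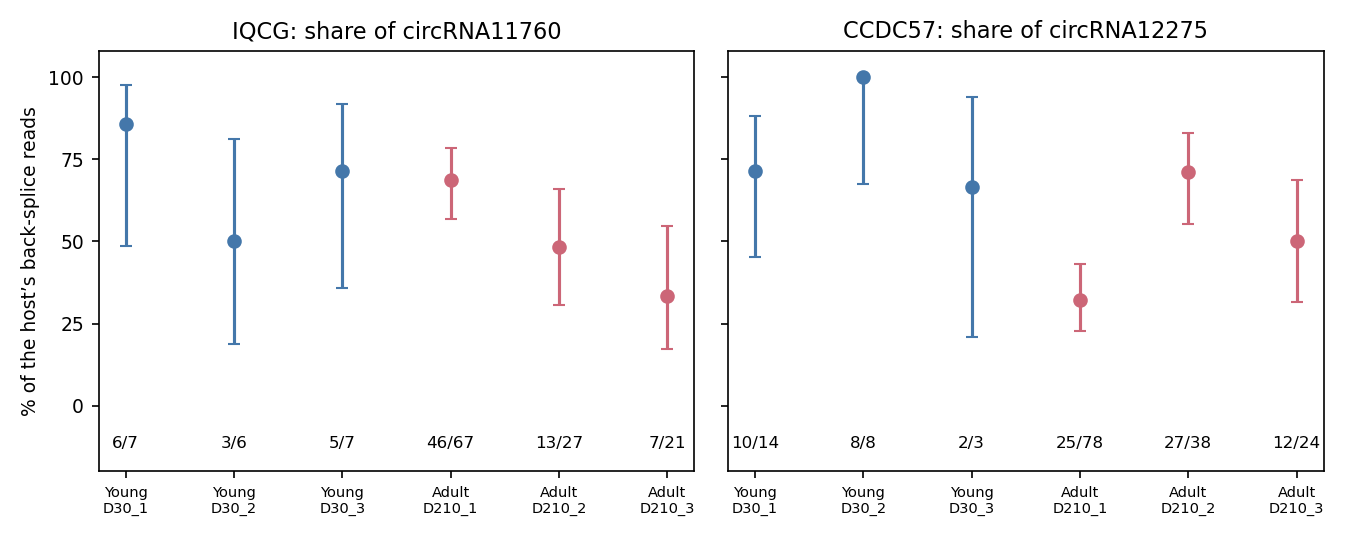
Share of the host's back-splice reads in the table on the circle with the most reads in all, in percent, for each library. Young_D30 is blue and Adult_D210 red, with 95% Wilson intervals and the reads behind each share below. Intervals are widest in the young libraries, which have 3 to 14 reads per host, and the groups overlap for IQCG. For CCDC57 they overlap only through the 1 intronic read counted in Young_D30 replicate 3 (2 of 3), without which its share is 2 of 2.

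The circRNAs most like the leading circle of each host were found by the root-mean-square difference of centred log2 CPM (reads per 1000000 reads of the library after TMM, prior count 2) over the 6 libraries. Nearest to circRNA10979 of POC1A was circRNA11717 of DLG1 (difference 0.26), a scaffold protein of cell junctions. Next came circRNA11759 of IQCG (0.27), from another of the hosts described here, and circRNA1059 of EML5 (0.30). The median difference over all tested circRNAs was 1.41. Nearest to circRNA11760 of IQCG were circRNA10158 of LRBA (0.26, 16 reads in all), circRNA10359 of SLC9B1 (0.33), a sodium-proton exchanger, and circRNA10229 of HSPA4L (0.39), a heat shock protein known from male germ cells. Nearest to circRNA12275 of CCDC57 were ciRNA426 of GBF1 (0.32), circRNA12245 of HSF2BP (0.36), a meiotic recombination protein, and circRNA11758 of LRCH3 (0.36). The EML5, LRBA, GBF1 and LRCH3 circles had at most 2 reads in any Young_D30 library. Young_D30 reads were also few for circRNA11759, at 1, 3 and 2, and for circRNA10979 itself, at 3, 5 and 4. The prior count shrinks log2 differences at such counts, so the likeness found for these circles is less certain. The LRCH3 circle lies near the IQCG circles, at chr13:144110987-144121936, and on the opposite strand. All of these nearest circRNAs had fold changes of 1.66 to 3.81 on the log2 scale. That is the kind of difference by which the hosts were chosen, so the likeness is a description.

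To see how circRNAs of other cilium and centriole genes behaved, 3 lists of 332 gene symbols were used, none of them holding the 3 hosts. Some of these symbols are alternative names of the same gene, so the genes are fewer. The lists were written from general knowledge of these structures, not taken from a database, and their counts and medians depend on which genes were listed. In the table, 49 hosts with these symbols had 139 circRNAs, of which 49 from 17 hosts were tested. Of the 49, 3 were called higher and 3 lower in Adult_D210, or 12.2% against 8.28% of all tested, and 43 were not called. Of these 6 calls, 4 came from NEK10, and without it 2 of 44 (4.55%) were called, so the share lay above the background only through that host. Every adult library lay above every young library for 5 of the 49 and below for 9, against 3.73% and 23.5% of all tested. Their median log2 fold change was 0.52, or 0.47 with circles that are at 0 in a group set to their bound, against −0.42 for all tested. With mapped reads as library sizes the medians were 0.04 and −0.90. Without Young_D30 replicate 1 the median over all tested was −0.05, and that of the lists was not analysed here. In the axoneme and flagellum list, 18 circRNAs of 7 hosts were tested and 1 was called, higher, with 14 of 18 fold changes above 0. That call and several more of the 18 came from SPATA5, which is not known as an axoneme protein. Circles of IQCB1, known from the centrosome and transition zone, were also among the 18, with fold changes on both sides of 0. The counts of this list thus do not describe axoneme proteins alone. No circle of a host other than SPATA5 was called in that list, and its counts without SPATA5 and IQCB1 were not analysed here. In the centriole and centrosome list, 10 circRNAs of 4 hosts were tested and 1 was called, higher, with 8 of 10 above 0. In the list of cilium transport and transition zone genes, 21 circRNAs of 6 hosts were tested. Of these 1 was called higher and 3 lower, with 9 of 21 above 0. Circles of a host can share a splice end, so these are not counts of separate genes. The share of all 1341 with a fold change above 0 was not analysed here.

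Of the axoneme and flagellum list, circRNA10244 of SPATA5 was called. Its host is listed for its name, spermatogenesis associated, and is known as an ATPase of ribosome maturation rather than as an axoneme protein. It had 4, 0 and 1 reads in Young_D30 and 35, 15 and 15 in Adult_D210 (log2 fold change 3.90, standard error 0.77, edgeR adjusted p = 0.00392). The adult libraries were all above the young ones, and the call held with each library left out and with mapped reads (edgeR adjusted p = 0.0402).

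CEP63 is the centrosomal partner of CCDC57 in centriole duplication. Its circRNA11295 had 15, 14 and 5 reads in Young_D30 and 47, 19 and 25 in Adult_D210 (log2 fold change 1.71, standard error 0.48, edgeR adjusted p = 0.0376). The call was lost with mapped reads (edgeR adjusted p = 0.216) and with any 1 library other than Young_D30 replicate 2 left out. A second CEP63 circle, circRNA11294, has the same lower end at base 83142279 of chromosome 13 and had more reads, 9, 33 and 29 in Young_D30 and 73, 17 and 38 in Adult_D210. Its groups overlapped and it was not called (log2 fold change 1.02, standard error 0.52, edgeR adjusted p = 0.228).

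NEK10, a kinase of motile cilia, gave circles called in both directions. The table lists this host as ENSSSCG00000011217, which the gene name table pairs with NEK10, and 5 of its 9 circRNAs had enough reads for the test. The most abundant, circRNA10676, had 103, 34 and 48 reads in Young_D30 and 11, 6 and 5 in Adult_D210 (log2 fold change −2.69, standard error 0.47, edgeR adjusted p = 0.00269). The circles circRNA10677, with 32, 11 and 11 against 0, 1 and 2 reads, and circRNA10674, with 15, 4 and 19 against 0 reads in each adult library, were also called lower (edgeR adjusted p = 0.0233 and 0.0281). Counted against 3 reads per adult library, circRNA10674 was at least 4.73-fold lower. The upstream end of these 3 circles, at base 15457207 of chromosome 13, is shared by 6 of the 9 NEK10 circRNAs. One of these, circRNA10679, was tested and not called, with 6, 13 and 2 reads in Young_D30 and 5, 0 and 7 in Adult_D210 (log2 fold change −0.49, standard error 0.98, edgeR adjusted p = 0.792).

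The remaining called NEK10 circle, circRNA10675, was higher in Adult_D210, with 1, 0 and 5 reads in Young_D30 and 25, 12 and 13 in Adult_D210 (log2 fold change 3.26, standard error 0.87, edgeR adjusted p = 0.0257). It begins further downstream, at base 15440865, and ends with circRNA10676 at base 15427699. Whether the fold changes of these circles differ from each other was not tested. The call of circRNA10676 held with each library left out in turn. That of circRNA10675 was kept only without Young_D30 replicate 3 and was lost with mapped reads (edgeR adjusted p = 0.0867). Those of circRNA10674 and circRNA10677 were lost without either of Adult_D210 replicates 1 and 2 or Young_D30 replicates 1 and 3, and that of circRNA10674 also without Adult_D210 replicate 3.

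The circRNA with the most reads in the lists was circRNA10404 of PKD2, a calcium-permeable channel of the primary cilium. It had 92, 80 and 57 reads in Young_D30 and 16, 35 and 0 in Adult_D210, so the groups did not overlap. It was not called (log2 fold change −1.81, standard error 0.72, edgeR adjusted p = 0.158), and the adult libraries varied from 0 to 35 reads.

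**Figure D5:**
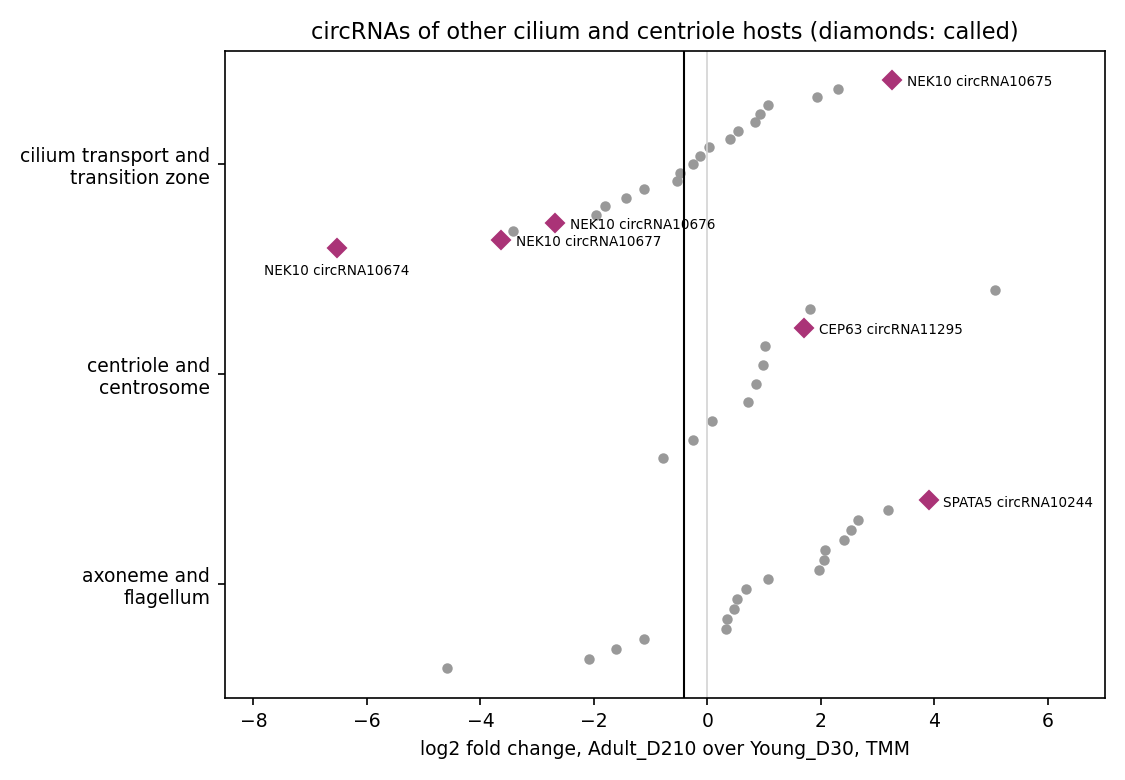
Log2 fold change, Adult_D210 over Young_D30 with TMM scaling, of the 49 tested circRNAs of other cilium and centriole hosts, by list, with the 6 called ones as labelled diamonds and the median of all 1341 tested as a vertical line at −0.42. The called circles of NEK10 lie on both sides of 0, and those of CEP63 and SPATA5 lie above it.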

How the data were processed

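Testis libraries of 3 Young_D30 and 3 Adult_D210 boars were analysed, grouped by their labels. Per the study's methods, Cutadapt was used for trimming and TopHat2 for mapping, and unmapped reads were searched for back-splices with TopHat-Fusion and CIRCExplorer2. The deposited values are raw counts of back-splice reads. The authors gave the same counts as SRPBM, a signal scaled by mapped reads, from which the mapped reads were recovered. The unit of replication was the boar, 1 library each.

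Counts were tested with edgeR 4.0.16 in R 4.3.3 (at least 10 reads over the 6 libraries, TMM of the back-splice totals, robust quasi-likelihood fit, Benjamini-Hochberg adjustment over 1341 circRNAs). The back-splice totals cover part of each library, so mapped reads were an alternative. DESeq2 1.42.0, edgeR's exact test, no TMM, other filters, no fold change limit, a replicate block and each library left out were the others. Data were simulated for this comparison from the 1341 circRNAs and filtered again at 10 reads. Of the changed circRNAs that passed, 16 of 86 (18.6%) changed by 2 on the log2 scale were called. Of those changed by 3, 30 of 81 (37.0%) were called, with 0 false calls. The condition of a read in Young_D30 replicate 1 was not simulated. Intervals of shares are 95% Wilson intervals, and they and the limit of 3 reads cover counting error only. Python 3.11.15 and SciPy 1.17.1 were used.

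The hosts and lists were chosen with earlier results of these data known. Named are all circRNAs of the 3 hosts, the listed circRNAs that were called, the 3 listed ones with the most reads, and the 3 nearest profiles per host, with circRNA10679 and circRNA12027 added after their values were seen. Of 482 hosts listed by Ensembl identifier, 284 had a symbol in the gene name table. No genome of the build was used, so no circle sequence is printed and exonic lengths were not analysed here. Expression of the linear host mRNA was not analysed here.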

Additional observations from a re-analysis of the deposited data

How the results depend on the processing

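All 5 tested circles of IQCG, POC1A and CCDC57 stayed higher in Adult_D210 in every fit. Their 5 calls became 2 with mapped reads as library sizes, 2 with the replicate block, and 1 to 4 with a library left out (2 without Young_D30 replicate 1, 2 without Young_D30 replicate 3, 3 without Young_D30 replicate 2, 1 without Adult_D210 replicate 1, 4 without Adult_D210 replicate 2 and 3 without Adult_D210 replicate 3). They remained 5 with DESeq2, edgeR's exact test, no TMM and each other filter. Without Young_D30 replicate 1 the young reads of circRNA12274 are all 0, so its fitted value there, 7.65, is no bound. The calls over all circRNAs, 111, fell to 33 with the replicate block and to 39 to 81 with a library left out. Those of the 3 lists, 6, became 2 with the block and 2 to 5 with a library left out, and 2 without NEK10, an alternative chosen after seeing the data. Same-numbered libraries of the groups did not deviate together (correlations 0.05, −0.01 and −0.03, and 2 of 6 libraries closest to their own number), so the numbers were not taken as pairs. The log2 ratio of the POC1A host level, 2.08, moved to 2.48 in CPM with TMM library sizes. With a library left out it was 1.80 to 2.26, that of IQCG 1.76 to 2.65 and that of CCDC57 1.78 to 2.99. The difference in the leading circle's share, adult minus young, kept its sign with a library left out, at −28.5 to −10.6 percentage points for IQCG and −38.3 to −18.0 for CCDC57, for which it was −39.4 with the exonic circles only. In the fit without Young_D30 replicate 1, the library with a read of every exonic circRNA, the median log2 fold change of the 1046 tested was −0.05, in place of −0.42. In that fit 38 were called higher and 36 lower, in place of 46 and 65. The shares over all tested given beside the circles and lists were taken with that library in. The part of the read condition in them was not tested. The young libraries held 3 to 14 reads per host, which limits every share and fold change given here.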

Other observations

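A wider set of hosts was taken, after the data had been examined, from the gene ontology column of the table. It was taken by the letter strings cili, flagell, axonem, centriol, basal body and manchette anywhere in a term. The string cili also occurs in words such as facilitated, and the hosts found were not sorted further. Without IQCG and POC1A it held 51 tested circRNAs of 18 hosts, 26 of which were also in the 3 lists of the report. Of the 51, 1 was called higher in Adult_D210 (circRNA11295 of CEP63) and 1 lower, or 3.92% against 8.28% of all tested, and the median log2 fold change was −0.14 against −0.42. Every adult library lay above every young library for 2 of the 51 and below for 15, against 3.73% and 23.5% of all tested. The circle called lower was circRNA12027 of APP, the amyloid precursor protein, with 33, 2 and 12 reads in Young_D30 and 0, 0 and 1 in Adult_D210 (log2 fold change −4.74, standard error 1.36, edgeR adjusted p = 0.0393).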
